A study of Mus musculus with 3 samples.

Results

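A divergent promoter pair is a pair of protein-coding genes on opposite strands that are read away from each other, with the minus-strand start to the left of the plus-strand start. Pairs were taken where the most upstream annotated starts lay 1 kb or less apart in GENCODE vM1 on the mouse genome build mm9. The rule found 827 pairs, which hold 1642 of 22342 protein-coding genes (7.35%), and 12 of these genes belong to 2 pairs. The other 20700 genes are called unpaired. The starts lay between 1 and 994 bp apart, with a median of 146 bp and quartiles of 77.0 and 288 bp. Each pair was examined in a window from 2 kb before the left start to 2 kb after the right start.

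At a divergent pair the stretch between the starts serves as the upstream region of both genes, and the first nucleosome of each gene lies on the outer side of its own start. Most such promoters are rich in CpG dinucleotides and belong to genes used in many tissues, such as those of DNA repair and the ribosome of mitochondria. H2A.Z is a variant of histone H2A that is placed in the nucleosomes flanking active and poised starts, and H3K27me3 is the trimethylated lysine of histone H3 deposited by Polycomb repressive complex 2 at silent developmental genes.

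The data are 3 ChIP-Seq libraries of mouse embryonic stem cells (ESCs), 1 per group. For the H2A.Z WT library and that of the mutant H2A.Z AP3, which derive from KH2 ESCs by the treatment text, a YFP-tagged H2A.Z transgene was carried on a lentivirus and switched on with doxycycline at 1 µg/ml, while a hairpin against the 3′ untranslated region depleted endogenous H2A.Z. Both were precipitated with an antibody against GFP, so only the tagged protein was mapped. In H2A.Z AP3, residues of the extended acidic patch were exchanged for those of H2A (G92N, D97N and S98K). The third library was precipitated with an antibody against H3K27me3 from cells labelled wild type. The labels give the strain of all 3 libraries as V6.5, and the labels and the methods name different H3K27me3 antibodies. Each library is given as a list of enriched regions with a start and an end only, so that no height is known. The ESC label could not be checked by expression from these 3 libraries, which give enriched regions only. The paper does report expression measurements, among them RNA-Seq, but they were not examined here. The promoters of the pluripotency genes Pou5f1, Nanog and Sox2 held no region of any library within 2 kb of their starts.

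Of 78359 H2A.Z WT regions at 1e-9, 929 touched the window of a pair. For H2A.Z AP3 this was so for 265 of 14599, and with H3K27me3 for 123 of 16970. The number of reads behind each list is unknown, so a shorter H2A.Z AP3 list and weaker enrichment of the mutant protein cannot be told apart from shallower sequencing. On chromosomes 6 and 8 both H2A.Z lists covered more at the pairs than on the other autosomes, and the main values are therefore also given for the other autosomes. With 1 library per group no difference between libraries was tested. Intervals are 95% Wilson intervals for shares and Newcombe intervals for differences, and they cover counting error only. Genes are not replicates, and both members of a pair share a window, so the intervals are too narrow.

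The promoters at which the patterns below are described differ in sequence as well as in spacing. The following stretches lie between the starts of 6 named pairs in mm9, each read on the plus strand, with a motif match in capitals. The first 3 are textbook divergent pairs with a CCAAT box, read as ATTGG where it lies on the minus strand, in the stretch free of H2A.Z WT. The next 2 hold a binding motif of the activator NRF1, and the last holds a GC box of the SP1 type.
Atm-Npat, chr9:53344925-53344954: gcgcagtgcgcaCCAATggcgattgccctc
Mcm4-Prkdc, chr16:15637543-15637572: aaaggtttccggCCAATcacagcggcaaag
Brca1-Nbr1, chr11:101413339-101413368: tctgggtttgcgATTGGctacctagtcttt
Smyd1-Cd8b1, chr6:71272431-71272460: catgaggcctgGCGCATGCtggcctctgtg
Ccr10-Cntnap1, chr11:101037256-101037285: atagggctgagGCATGCGCttgcgcggggt
Hspb2-Cryab, chr9:50560464-50560493: cagtcagagtggGGGCGGggtctacaccac
The matches at Smyd1-Cd8b1 and Hspb2-Cryab lay inside an H2A.Z WT region, whereas those of the other 4 pairs did not. CCAAT matches of further named pairs, not printed, did lie inside an H2A.Z WT region. These were at Dok1-Loxl3, Abca17-Abca3, E130018O15Rik-Hmx1, Pdzd7-Sfxn3 and Obsl1-Inha.

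H2A.Z WT was found at most divergent pairs, H2A.Z AP3 at fewer and H3K27me3 at few. H2A.Z WT had a region in the window of 668 of 827 pairs (80.8%, interval 77.9 to 83.3). H2A.Z AP3 had one at 233 pairs (28.2%, 25.2 to 31.3), of which 221 also had H2A.Z WT. H3K27me3 had one at 75 pairs (9.07%, 7.30 to 11.2), of which 70 also had H2A.Z WT. All 3 were present at 30 pairs. Where present, H2A.Z WT covered a median of 667 bp of the window (25 to 3111 bp), H2A.Z AP3 200 bp (25 to 1978 bp) and H3K27me3 400 bp (25 to 4204 bp). A single H2A.Z WT region lay in the window of 422 pairs, and 218 pairs had 2.

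**Figure D1:**
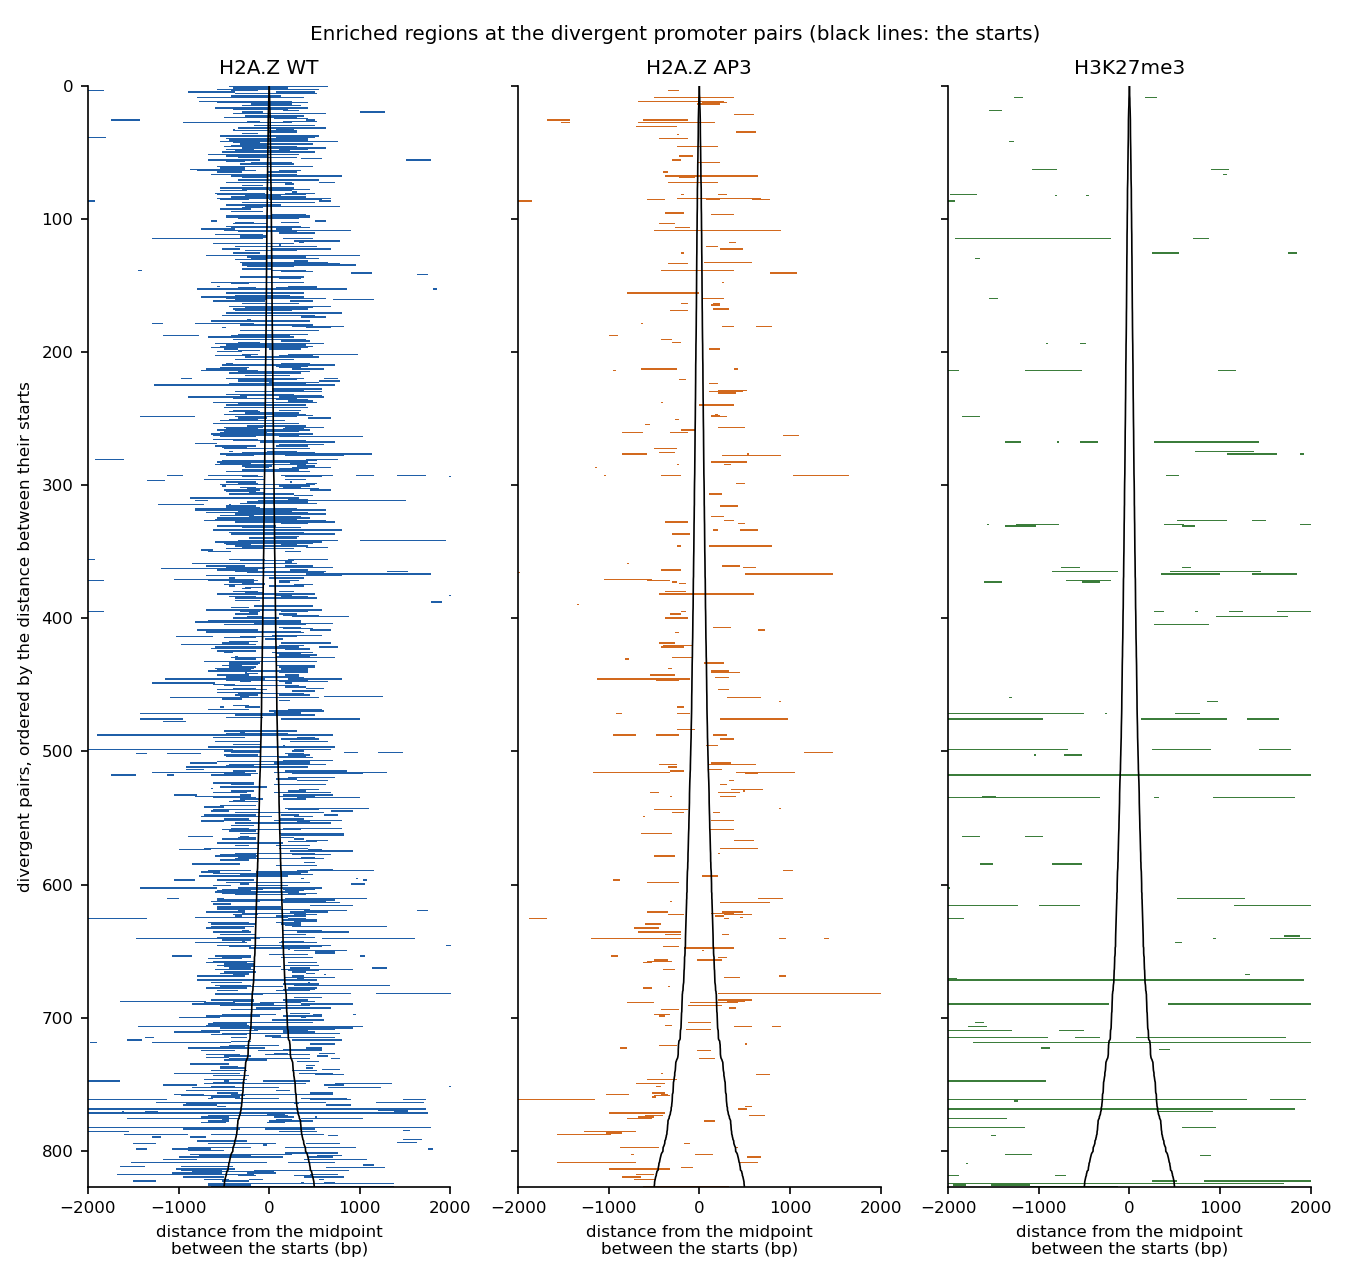
Enriched regions of the 3 libraries at all 827 divergent pairs, 1 row per pair, ordered by the distance between the starts from 1 bp at the top to 994 bp at the bottom; the horizontal axis is the distance in bp from the midpoint between the starts and the black lines mark the starts. H2A.Z WT regions gather at and just outside the starts, H2A.Z AP3 regions are fewer and lie mostly outside the starts, and H3K27me3 regions are few, with a small number that fill most of a row.

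Genes of divergent pairs carried H2A.Z WT more often than unpaired genes. Among all protein-coding genes 58.9% had an H2A.Z WT region within 2 kb of the most upstream start. The share was 80.6% (78.7 to 82.5) of the paired genes and 57.2% (56.5 to 57.9) of the unpaired genes, a difference of 23.4 percentage points (21.3 to 25.4). For H2A.Z AP3 the share over all genes was 20.8%, with 28.0% of paired and 20.2% of unpaired genes, a difference of 7.78 points (5.59 to 10.1). For H3K27me3 the order was the opposite: 16.9% of all genes, 8.77% of paired genes and 17.6% of unpaired genes had a region, a difference of -8.79 points (-10.2 to -7.24). Within 2 kb of a paired start the partner's start is included as well, so the first 1 kb of the gene body was also counted. There H2A.Z WT was present at 49.8% of all genes, 65.3% of paired genes and 48.6% of unpaired genes.

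CpG content moved with these differences. The observed-to-expected CpG ratio within 500 bp of the start had a median of 0.775 in paired and 0.510 in unpaired genes, and 1393 paired genes (84.8%) against 42.9% of unpaired genes reached 0.6, here called CpG-rich. Among CpG-rich genes H2A.Z WT was found at 81.8% of paired and 80.5% of unpaired genes, and the interval of the difference of 1.37 points ran from -0.888 to 3.48. In the first 1 kb of CpG-rich gene bodies the shares were 67.8% of paired and 70.4% of unpaired genes. H2A.Z AP3 changed order, with 26.3% of paired and 30.9% of unpaired CpG-rich genes (difference -4.57 points, -7.01 to -2.01). The H3K27me3 difference was larger among CpG-rich genes, with 7.61% of paired and 26.3% of unpaired genes (-18.7 points, -20.3 to -16.9). In the 249 paired genes that were CpG-poor, H2A.Z WT was found at 73.9% against 39.7% of unpaired genes and H2A.Z AP3 at 37.3% against 12.2%. H3K27me3 was found at 15.3% against 11.0%. In the first 1 kb of CpG-poor gene bodies the H3K27me3 shares were 8.03% of paired and 8.07% of unpaired genes. There H2A.Z WT was found at 51.0% against 32.2% and H2A.Z AP3 at 18.9% against 7.87%. Counted by pair, 56 of 250 CpG-poor members (22.4%) had a CpG-rich partner, and the part of this in the result was not tested.

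**Figure D2:**
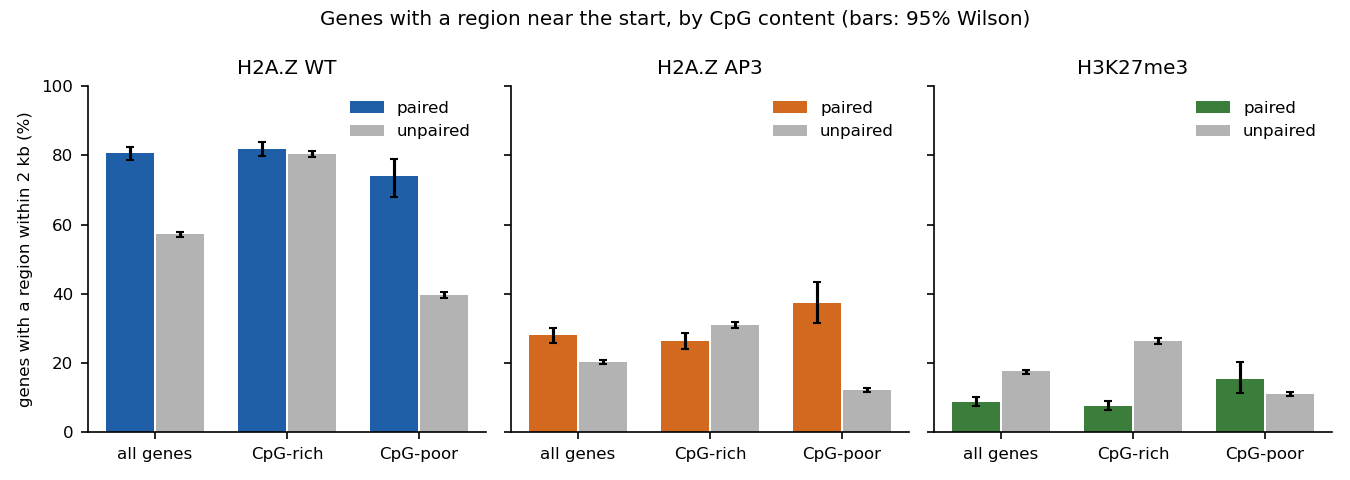
Share of genes in percent with a region within 2 kb of the start for each library, in paired genes (coloured) and unpaired genes (grey), over all genes and over CpG-rich and CpG-poor genes; error bars are 95% Wilson intervals. Paired and unpaired CpG-rich genes stand at 81.8% and 80.5% for H2A.Z WT and at 7.61% and 26.3% for H3K27me3.

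Around each start H2A.Z WT formed a higher and narrower peak in divergent genes than in unpaired genes. Coverage was highest 175 bp into the gene, where 54.3% of the paired starts lay under a region, and in unpaired genes it was highest at 200 bp with 34.4%. At the start itself 36.4% of paired and 25.1% of unpaired genes were covered. Further into the gene the order reversed: at 500 bp the shares were 19.6% and 23.4%, at 700 bp 7.00% and 15.2%, and at 1000 bp 3.23% and 8.89%. Among genes with H2A.Z WT nearby, the first 500 bp of the gene held 259 ± 177 bp of H2A.Z WT in paired genes (SD over 1324 genes) and 266 ± 190 bp in unpaired genes (SD over 11839 genes). From 500 to 1000 bp, 27.8% of paired genes (25.4 to 30.3) and 51.3% of unpaired genes (50.4 to 52.2) still had any. Restricting both sets to CpG-rich genes with H2A.Z WT and without H3K27me3 left 25.8% (23.2 to 28.5) of 1036 paired and 42.6% (41.2 to 44.0) of 4920 unpaired genes. The peaks of these restricted sets were 70.0% (67.1 to 72.7) and 62.8% (61.4 to 64.1).

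Towards the partner, H2A.Z WT coverage over all pairs stayed above that upstream of unpaired genes. At pairs 201 to 300 bp apart it did not at 100 and 150 bp upstream. There it was 18.3% (13.9 to 23.7) and 18.7% (14.3 to 24.2) of 235 paired starts, against 19.7% and 19.2% of unpaired starts. Only bases that lie between the starts were counted here, so fewer pairs contribute with distance. At 50 bp upstream 31.2% of 1428 paired starts and 21.6% of unpaired starts lay under H2A.Z WT, and at 150 bp upstream the shares were 23.4% of 804 paired starts and 19.2% of unpaired starts. Among CpG-rich genes with H2A.Z WT and without H3K27me3 the order at 150 bp upstream was the opposite, with 28.3% of paired starts (24.5 to 32.5) and 33.5% of unpaired starts (32.2 to 34.8). H2A.Z AP3 over all pairs was sparser in this stretch than upstream of unpaired genes, but not at pairs 301 to 500 bp apart, where it covered 6.77% of 192 paired starts (4.00 to 11.2) at 150 bp upstream against 3.05% of unpaired starts. Its coverage peaked 150 bp into the gene at 8.28% of paired starts, against 4.96% at 175 bp in unpaired genes. At 50 bp upstream it covered 17 of 1428 paired starts (1.19%, 0.745 to 1.90) and 2.30% of unpaired starts (2.11 to 2.52). Among the CpG-rich genes just described the shares were 1.13% (0.613 to 2.06) and 3.09% (2.64 to 3.61) there, and 1.88% and 5.55% at 150 bp upstream. H3K27me3 covered 0.670% of paired and 3.29% of unpaired starts, and 2.44% and 6.85% of positions 500 bp into the gene.

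**Figure D3:**
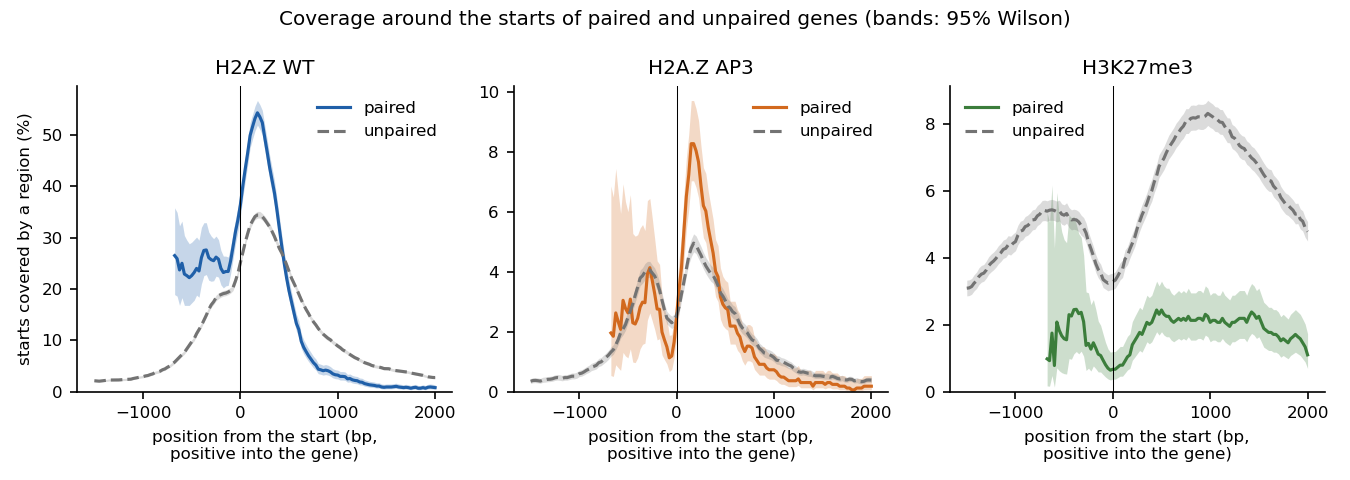
Percent of starts covered by a region at each position from the start in bp, positive into the gene, for paired genes (solid, upstream positions only between the starts) and unpaired genes (dashed); bands are 95% Wilson intervals and positions with fewer than 100 starts are left out. In paired genes H2A.Z WT reaches 54.3% at 175 bp and H2A.Z AP3 8.28% at 150 bp, and H2A.Z AP3 falls to 1.19% at 50 bp upstream.

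Of the 3 libraries, H2A.Z WT covered most of what was covered between the starts. At least 1 bp of it was covered at 367 pairs (44.4%, 41.0 to 47.8) by H2A.Z WT, at 38 pairs (4.59%, 3.37 to 6.24) by H2A.Z AP3 and at 8 pairs (0.967%, 0.491 to 1.90) by H3K27me3. On chromosomes 6 and 8 the H2A.Z WT share was 67.4% (57.0 to 76.4) and that of H2A.Z AP3 15.1% (9.05 to 24.2), and on the other autosomes they were 42.4% (38.8 to 46.0) and 3.46% (2.36 to 5.06). By bases, H2A.Z WT covered 27.6% of the 182498 bp between the starts and 24.7% of the first 1 kb on the outer sides. Between the starts this was 52.1% on chromosomes 6 and 8 and 25.6% on the other autosomes. H2A.Z AP3 covered 2.31% between and 3.48% on the outer sides. Its 4207 bp between the starts came from 38 pairs, with 826 bp from Abca17-Abca3 alone. The bases of H2A.Z AP3 thus came to 8.35% of those of H2A.Z WT between the starts and to 14.1% beside them. Without chromosomes 6 and 8 and X these values were 7.13% and 10.0%, and on chromosomes 6 and 8 they were 14.2% and 34.5%. The order did not hold in every class of distance: for starts 301 to 500 bp apart the ratio was 19.8% between the starts and 14.5% beside them, while in the other classes it was 2.08% to 9.10% between and 12.7% to 17.9% beside. In unpaired genes the same ratio was 11.9% in the 150 bp upstream and 13.1% in the first 1 kb.

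How H2A.Z WT was arranged depended on how far apart the starts lay. A single H2A.Z WT region ran across both starts at 230 pairs (27.8%), and separate regions stood beside both starts at 191 pairs (23.1%). The share crossed by a single region was 46.5% (36.3 to 57.0) on chromosomes 6 and 8 and 26.3% (23.2 to 29.6) on the other autosomes. At 237 pairs (28.7%) only 1 start had H2A.Z WT within 1 kb of its gene body, at 10 pairs the region lay elsewhere in the window, and 159 pairs (19.2%) had none. The share with a region across both starts was 43.1% (37.5 to 48.9) of the 290 pairs with starts 1 to 100 bp apart. It was 29.8% at 101 to 200 bp, 16.1% at 201 to 300 bp, 11.1% at 301 to 500 bp and 8.42% (4.33 to 15.7) of the 95 pairs 501 to 1000 bp apart. A longer stretch needs a longer region to be crossed, so this order is partly set by length. The share of pairs with any H2A.Z WT in the window stayed between 80.0% and 83.8% over the same classes. H2A.Z WT beside both starts was found at 56.6% of the closest pairs (50.8 to 62.1) and 35.8% of the widest (26.9 to 45.8), with 46.5% to 52.4% in the classes between. Coverage of the midpoint was 45.5% at 1 to 100 bp, lowest at 18.6% at 201 to 300 bp, and 23.2% in both wider classes, and the intervals of the 3 wider classes overlap.

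**Figure D4:**
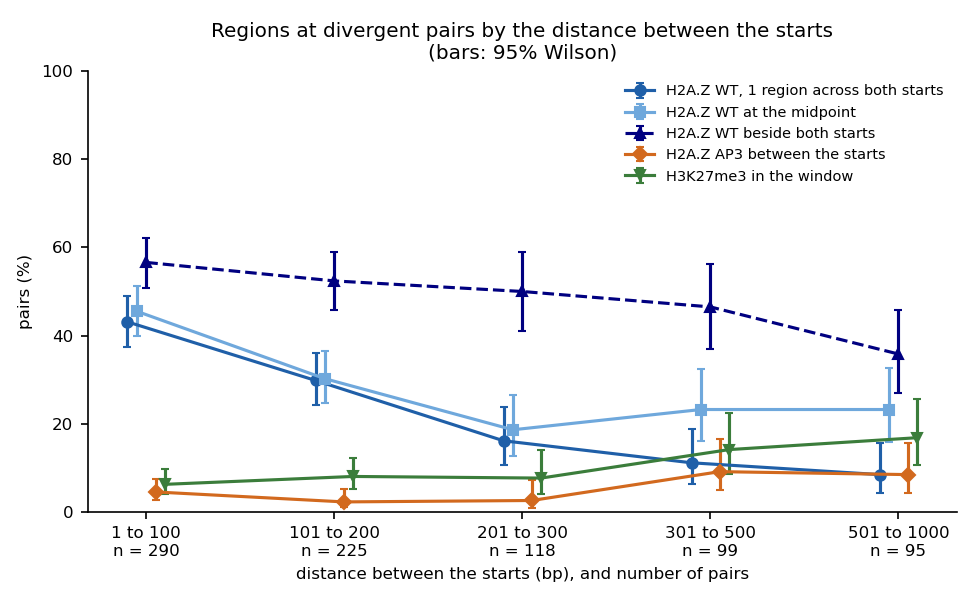
Percent of divergent pairs with each arrangement of regions, by the distance between the starts in bp, with the number of pairs per class; bars are 95% Wilson intervals. A single H2A.Z WT region across both starts falls from 43.1% of the closest to 8.42% of the widest pairs, while H3K27me3 in the window goes from 6.21% to 16.8%.

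At 187 pairs H2A.Z WT lay on both sides of an uncovered midpoint, and the uncovered gap had a median length of 400 bp with quartiles of 300 and 638 bp. The gap was hardly wider for starts 101 to 200 bp apart than for starts 1 to 100 bp apart, with medians of 350 bp in both classes. It was 375 bp at 201 to 300 bp, 425 bp at 301 to 500 bp and 675 bp at 501 to 1000 bp. Of the 374 edges of these gaps 300 (80.2%) lay inside a gene body rather than between the starts. In the closest class 92.5% of the edges lay inside a gene, and in the widest class 58.0%. Close starts leave little room for an edge between them, so these shares are partly set by distance. Regions that did cover the midpoint numbered 267 and had a median length of 900 bp.

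The members of a pair tended to carry H2A.Z WT together. H2A.Z AP3 was sparser and mostly found on 1 side, but it too was more frequent beside the right start when present beside the left. H2A.Z WT was present in the first 1 kb of both genes at 421 pairs (50.9%), of the left gene only at 131, of the right gene only at 106 and of neither at 169. The right gene had it at 76.3% of pairs whose left gene did and at 38.5% of pairs whose left gene did not. A region that crosses both starts counts for both genes. H2A.Z AP3 was present beside both starts at 36 pairs and beside a single start at 184 pairs, 100 of them on the left. The right gene had it at 26.5% of pairs with H2A.Z AP3 on the left and at 12.2% without. Of the 36 pairs with H2A.Z AP3 beside both starts, 18 were among the 86 on chromosomes 6 and 8 (20.9%) and 18 among the 722 on the other autosomes (2.49%). On the other autosomes the right gene had it at 16.8% of pairs with H2A.Z AP3 on the left and at 10.7% without. The same shares for H2A.Z WT on the other autosomes were 74.8% and 36.9%. Of the 184 single-sided pairs, H2A.Z WT was present on both sides at 116, only on the side of H2A.Z AP3 at 50, only on the other side at 8 and on neither at 10. For H3K27me3, counted over 2 kb of each gene, both members had a region at 21 pairs, the left gene only at 34 and the right gene only at 20.

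H2A.Z AP3 was found at 221 of the 668 pairs with H2A.Z WT (33.1%, 29.6 to 36.7). Counted by gene, the share among genes with H2A.Z WT was 32.9% in paired and 33.1% in unpaired genes. On the other autosomes these shares were 29.8% and 29.7%, and on chromosomes 6 and 8 they were 57.9% and 60.1%. By pair, chromosomes 6 and 8 had H2A.Z AP3 at 46 of 86 pairs (53.5%), and the other 17 autosomes ranged from 12.5% to 37.9%. H2A.Z WT was found at 80 of the 86 pairs on chromosomes 6 and 8 and at 70.8% to 93.3% of those on each other autosome. H3K27me3 was found at 70 of the 668 pairs with H2A.Z WT (10.5%), and by gene at 10.2% of paired and 28.8% of unpaired genes with H2A.Z WT. Pairs with H2A.Z WT and H3K27me3 had H2A.Z AP3 at 30 of 70 (42.9%, 31.9 to 54.5), and pairs with H2A.Z WT alone at 191 of 598 (31.9%, 28.3 to 35.8), intervals that overlap.

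Divergent pairs were common among the listed genes of genome maintenance and rare among the listed developmental transcription factors. The share of pairs with H2A.Z WT ran from 14.3% to 100% over the lists, beside 80.8% of all pairs. Of 135 genes of DNA repair and replication 39 (28.9%) were paired, against 7.35% of all genes. They formed 38 pairs, of which 32 had H2A.Z WT, 10 had H2A.Z AP3 and none had H3K27me3, shares of 84.2%, 26.3% and 0% beside 80.8%, 28.2% and 9.07% of all pairs. Rad51c-Tex14, with a recombinase paralogue, held 1125 bp of H2A.Z WT and no H2A.Z AP3. Wrn-Purg, with the helicase of Werner syndrome, held 1475 bp of H2A.Z WT and 450 bp of H2A.Z AP3 on chromosome 8. Osgep-Apex1, with the abasic site endonuclease, held no region of any library.

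Over groups of protein synthesis and turnover the share of pairs with H2A.Z WT ran from 44.4% to 100% and that with H2A.Z AP3 from 0% to 33.3%. Over all pairs these shares were 80.8% and 28.2%, and 7.35% of all genes were paired. Of the 77 mitochondrial ribosome genes 18 (23.4%) were paired. H2A.Z WT was found at 15 of their 17 pairs (88.2%) and H2A.Z AP3 at 5 (29.4%), near the shares of all pairs. Mrpl50-Zfp189 held 950 bp of H2A.Z WT and 375 bp of H2A.Z AP3. Mrpl49-Fau, which joins a mitochondrial ribosomal protein to a ubiquitin-like fusion with a small-subunit protein, held none. All 6 proteasome pairs had H2A.Z WT, such as Psma7-Ss18l1 with 950 bp, and 2 (33.3%) had H2A.Z AP3. Of the 8 pairs with a tRNA synthetase 6 had H2A.Z WT and 2 had H2A.Z AP3, and Kars-Terf2ip on chromosome 8 held 1225 bp and 1025 bp. Of the 18 chaperone pairs 10 (55.6%) had H2A.Z WT and 6 (33.3%) had H2A.Z AP3. Cct5-Fam173b held 575 bp of H2A.Z WT, while Hspa1a-Hspa1l, an inducible and a testis-enriched member of the heat shock protein family, held no region. Hspa1a has a near-identical copy nearby, so its lack of regions is uncertain, and Hspa14-Cdnf counts for 2 of these pairs because the annotation holds 2 genes named Hspa14. The 9 pairs with a gene of the cytosolic ribosome had H2A.Z WT at 4 (44.4%) and H2A.Z AP3 at none. Rps27-Rab13 and Rpl9-Lias were among those without a region.

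Replication-dependent histone genes stood at the other end. Of 67 such genes 27 (40.3%) were paired, the highest share of the lists examined, and 13 of their 14 pairs join 2 histone genes. H2A.Z WT was found at 2 of the 14 pairs, Hist1h2ba-Hist1h2aa with 1000 bp and Hist2h2ac-Hist2h2be with 325 bp. None had H2A.Z AP3, and Hist1h2ba-Hist1h2aa had 75 bp of H3K27me3. The other 12 pairs, all in the histone cluster on chromosome 13, held no region of any library. Histone genes are near-identical copies, and whether reads that map to several places were kept is not given in the sources used here, so the lack of regions there is uncertain. Of 237 genes listed as homeobox and other developmental transcription factors 4 (1.69%) were paired. The list does not count all such genes, among them Hmx1 and Nr2e1, whose pairs are described below. The share therefore holds for this list only. H2A.Z WT was found at all 4 pairs, beside 80.8% of all pairs. H3K27me3 was found at 2 of the 4, Gm17649-Hoxc13 with 2334 bp and Foxa3-Sympk with 300 bp, beside 9.07% of all pairs. H2A.Z AP3 was found at 1 of the 4, Foxa3-Sympk with 225 bp, beside 28.2% of all pairs.

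The 4 pairs with the most H2A.Z WT in the window were chosen for that value, which is therefore a description. Dok1-Loxl3 joins an adaptor of tyrosine kinases to a lysyl oxidase and lies on chromosome 6 with starts at 82983465 and 82984167. It held 3111 bp of H2A.Z WT, including all 701 bp between the starts, with 1475 bp of H3K27me3 and no H2A.Z AP3. The H3K27me3 there lay beside both starts and not between them. Hspb2-Cryab, a pair of small heat shock proteins on chromosome 9, held 2625 bp of H2A.Z WT, including all 403 bp between the starts. It also had 300 bp of H2A.Z AP3, all of it on the Cryab side, and 200 bp of H3K27me3 on the Hspb2 side. Exoc8-Gm505, with a subunit of the exocyst, held 2600 bp of H2A.Z WT in a single region and 650 bp of H2A.Z AP3, none of which lay between the starts. Smyd1-Cd8b1, a methyltransferase of muscle beside a T cell coreceptor, held 2400 bp of H2A.Z WT and nothing of the other libraries. All of these pairs but Hspb2-Cryab lie on chromosomes 6 and 8. H2A.Z WT covered 52.1% of the bases between the starts on those chromosomes and 25.6% on the other autosomes. H2A.Z WT, the value these pairs were chosen for, covered the whole stretch between the starts in all 4 pairs. H2A.Z AP3 covered none of it, but over all pairs it lay between the starts at only 4.59%.

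Among pairs with the most H2A.Z WT between the starts, the widest were Abca17-Abca3, 994 bp apart, and Pdzd7-Sfxn3, 987 bp apart. Abca17-Abca3 holds 2 lipid transporters of the ABC family, of which Abca3 acts in lung surfactant. Its H2A.Z WT region covered all 993 bp between the starts, H2A.Z AP3 826 bp and H3K27me3 376 bp. Pdzd7-Sfxn3, with a protein of hair cell stereocilia and a mitochondrial carrier, had 986 bp covered by H2A.Z WT and no H2A.Z AP3. Obsl1-Inha, the latter the alpha subunit of inhibin, had 715 bp covered by H2A.Z WT and 600 bp of H2A.Z AP3 elsewhere in the window. Abca17-Abca3 is also the last pair inside the limit of distance. The first combination beyond it, Nacc1-Trmt1 at 1004 bp, held 75 bp of H2A.Z WT, 125 bp of H2A.Z AP3 and no H3K27me3.

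Away from chromosomes 6 and 8 the most H2A.Z AP3 was found at Leprel4-Fkbp10 on chromosome 11, whose products both act on collagen in the endoplasmic reticulum. It held 1075 bp of H2A.Z AP3 and 2025 bp of H2A.Z WT, and none of the 652 bp of H2A.Z WT between the starts was shared by H2A.Z AP3. Sgsh-Slc26a11, a lysosomal sulfatase gene and an anion transporter gene 21 bp apart, held 950 bp of H2A.Z AP3 and 1200 bp of H2A.Z WT. Both libraries covered all 20 bp between its starts. Ccr10-Cntnap1, a chemokine receptor and a protein of myelinated axons, held 925 bp of H2A.Z AP3, of which 143 bp lay in the first 1 kb on the Ccr10 side and the rest further out on that side. On chromosomes 6 and 8 the values were higher. E130303B06Rik-4933405L10Rik on chromosome 8 held 1978 bp of H2A.Z AP3 and 2325 bp of H2A.Z WT, and H1fx-Gm5577 on chromosome 6, with a linker histone gene, held 1500 bp and 2275 bp. At both of these the H2A.Z AP3 lay outside the starts.

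The 5 pairs with the most H3K27me3 were likewise chosen for that value. Nr2e1-Ostm1 on chromosome 10 joins the orphan nuclear receptor of neural stem cells to a partner of a lysosomal chloride channel. H3K27me3 covered 4204 bp there, the whole window, and H2A.Z WT 800 bp, of which 512 bp lay in the first 1 kb of Nr2e1 and none in that of Ostm1. Ccr10-Cntnap1 held 3994 bp of H3K27me3, including all 597 bp between the starts, and 1650 bp of H2A.Z WT, none of which lay between the starts. Duox2-Duoxa2 on chromosome 2, the thyroid oxidase and its maturation factor, held 3961 bp of H3K27me3 and 950 bp of H2A.Z WT, the latter only on the Duox2 side. E130018O15Rik-Hmx1 on chromosome 5, with a homeobox gene of eye and ear, held 3733 bp of H3K27me3, none of it between the starts. There 250 bp between the starts had H2A.Z WT. Ntrk3-Gm9885 on chromosome 7, with the receptor of neurotrophin-3, held 3232 bp of H3K27me3 and 975 bp of H2A.Z WT. H2A.Z AP3 was found at 1 of these 5 pairs, Ccr10-Cntnap1, beside 28.2% of all pairs. Among all 70 pairs with H2A.Z WT and H3K27me3 it was found at 30 (42.9%). Among H3K27me3 pairs a member with a systematic name (a Gm number or a name ending in Rik) was common, a pattern chosen after the values were seen. Such a member was present in 206 pairs, of which 31 (15.0%, 10.8 to 20.6) had H3K27me3, against 44 of the 621 other pairs (7.09%, 5.32 to 9.38). For H2A.Z AP3 both sets stood at 28.2%.

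**Figure D5:**
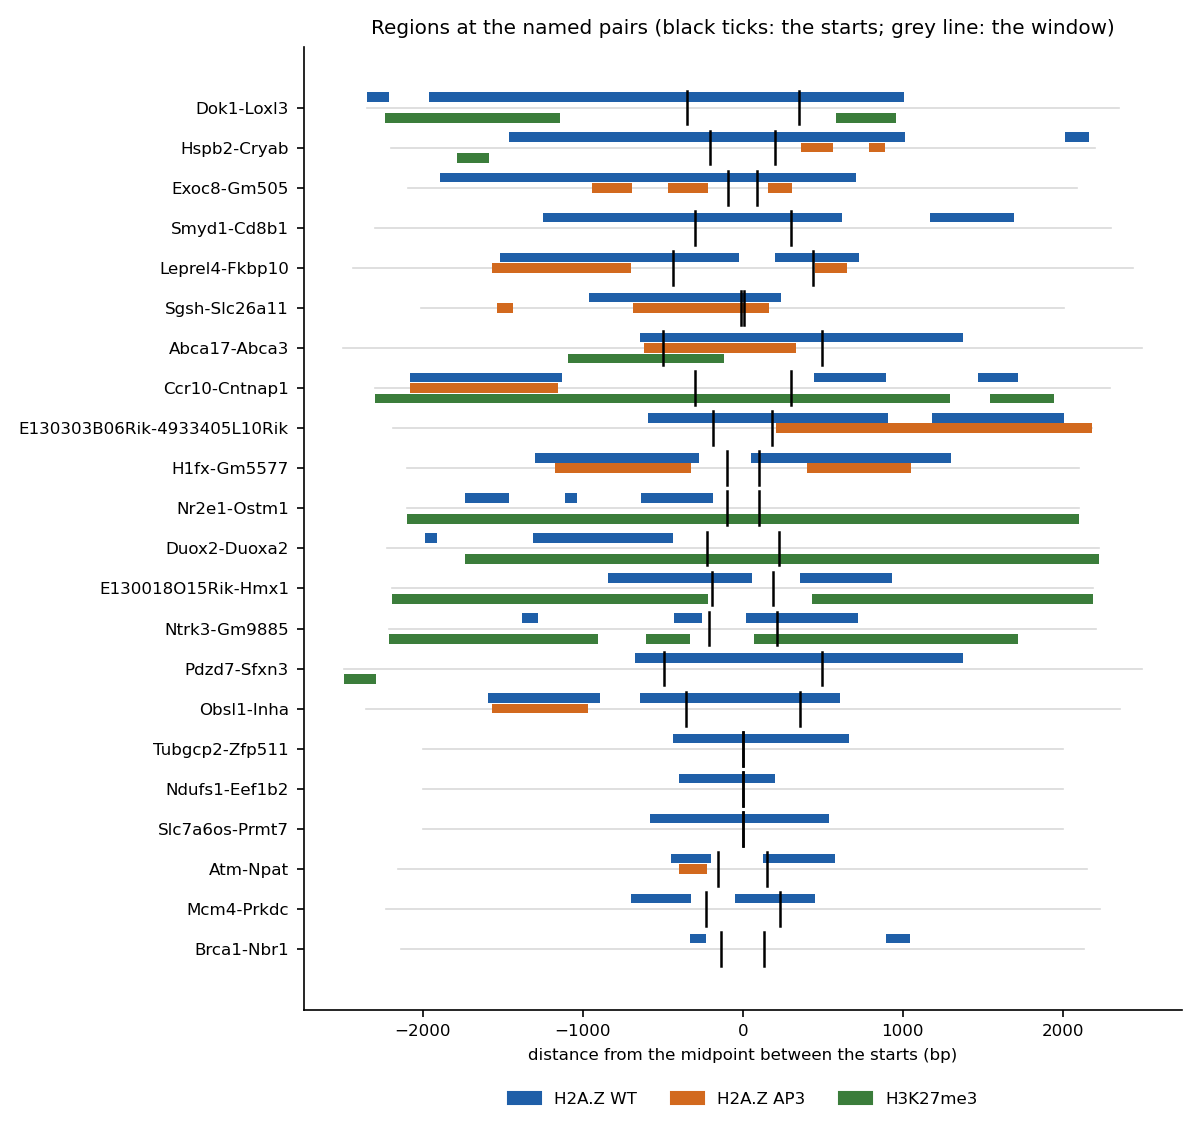
Regions of the 3 libraries at the named pairs, as distance in bp from the midpoint between the starts; black ticks are the starts, grey lines the window, and coloured bars the regions clipped to the window. H2A.Z WT spans both starts at Dok1-Loxl3 and Smyd1-Cd8b1, stands beside both starts at Atm-Npat and Mcm4-Prkdc, and H3K27me3 fills the window at Nr2e1-Ostm1.

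The 5 closest pairs, 1 with adjacent starts and 4 with starts 3 bp apart, all had H2A.Z WT, and 3 of them were spanned by a single region. The 3 spanned pairs had neither of the other libraries. Tubgcp2-Zfp511, a component of the gamma-tubulin complex and a zinc finger gene with adjacent starts, held 1100 bp. Ndufs1-Eef1b2, a subunit of respiratory complex I and a translation elongation factor 3 bp apart, held 600 bp, of which 396 bp lay on the Ndufs1 side. Slc7a6os-Prmt7, the latter an arginine methyltransferase, also 3 bp apart, held 1125 bp. At Dhrs1-2610027L16Rik 474 bp of H2A.Z WT and 125 bp of H2A.Z AP3 lay on the Dhrs1 side only, and at 5730494M16Rik-AW554918 950 bp of H2A.Z WT lay in separate regions beside both starts. The last 2 pairs tie with the others at 3 bp and were added to those named by the rule after their values were seen.

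Of the textbook divergent pairs, 3 met the rule, and all 3 had H2A.Z WT beside both starts in separate regions. Atm-Npat, a kinase of the DNA damage response and a coactivator of histone genes 307 bp apart on chromosome 9, held 700 bp. Its H2A.Z WT regions left a gap of 325 bp, which holds the CCAAT box printed above, 92 bp from the Atm start. A stretch of 175 bp of H2A.Z AP3 lay on the Atm side. Mcm4-Prkdc, a subunit of the replicative helicase and the DNA-dependent protein kinase 466 bp apart on chromosome 16, held 875 bp of H2A.Z WT, including 283 bp between the starts. Brca1-Nbr1, a recombination gene and an autophagy receptor 270 bp apart on chromosome 11, held 250 bp, with a gap of 1125 bp. No H2A.Z AP3 was found at Mcm4-Prkdc or Brca1-Nbr1. In other textbook pairs the annotated starts cross, so that the most upstream transcripts overlap, and these are not members. Ppat-Paics held 725 bp of H2A.Z WT and 50 bp of H2A.Z AP3. Hspd1-Hspe1 and Surf1-Surf2 held no region. Col4a1-Col4a2 on chromosome 8 held 2875 bp of H2A.Z WT, 1425 bp of H2A.Z AP3 and 2522 bp of H3K27me3, and Psmb9-Tap1 held 1900, 325 and 1425 bp. Over all 733 unpaired genes whose starts cross a partner's within 1 kb, 77.9% had H2A.Z WT, 28.5% H2A.Z AP3 and 15.4% H3K27me3 within 2 kb.

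Motifs of general promoter factors were more frequent at paired starts, except for the TATA box. Exact letters were searched on both strands from 250 bp before to 50 bp after the start. The NRF1 motif GCGCATGC was found at 7.06% of paired and 3.07% of unpaired genes, beside 3.36% of all genes. The ETS motif CCGGAAGT was found at 13.1% and 4.17% (all genes 4.83%), and the YY1 motif AAGATGGCG at 5.24% and 1.56% (1.83%). The CCAAT box was found at 43.0% and 37.5% (37.9%), and the SP1 motif GGGCGG at 68.1% and 42.1% (44.0%). The TATA box TATAAA was found at 4.45% of paired and 14.1% of unpaired genes (13.4%). Among CpG-rich genes the ETS motif remained at 14.1% of paired and 7.86% of unpaired genes, while SP1 stood at 71.7% and 72.0%. Paired starts overlap in these stretches, so 1 match can count for both genes.

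Between the starts, CCAAT matches were covered by H2A.Z WT at a lower share than the bases there as a whole. Of 655 CCAAT matches there, 127 (19.4%, 16.5 to 22.6) lay in an H2A.Z WT region, where 27.6% of all bases between the starts were covered. The midpoint was covered at 24.9% of the 334 pairs with a CCAAT box between the starts and at 37.3% of the 493 pairs without. Of 71 NRF1 matches 15 (21.1%, 13.2 to 32.0), of 62 ETS matches 20 (32.3%, 22.0 to 44.6) and of 994 SP1 matches 259 (26.1%, 23.4 to 28.9) lay in an H2A.Z WT region, and these intervals include 27.6%. Longer stretches hold more matches and were covered less, and the part of distance in the CCAAT values was not tested.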

How the data were processed

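The authors sequenced single-end ChIP-Seq libraries, aligned reads to mm9 with Bowtie 0.12.3, extended them, counted them in 25 bp bins, and called enriched bins with a Poisson model at 1e-9 with a minimum fold over input. Deposited for each library were lists of regions, named for thresholds of 1e-9 and 1e-12, whose values are a start and an end with no signal. Each library was called on its own. The 1e-9 lists were used, since the methods name that threshold.

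Starts came from GENCODE vM1 (mm9), as the most upstream protein-coding transcript start on 20 chromosomes, and sequences from the mm9 genome. An overlap of at least 1 bp counted. All steps used Python 3.11.15 and NumPy 2.4.6, and the functions behind the counts were tested on simulated data. Depth is unknown, and no input or aligned read was analysed here. The pairs, gene lists and motifs were chosen with earlier results of these data known. Pairs were named by a fixed rule: the 4 with the most H2A.Z WT, the 4 with the most H2A.Z AP3 outside chromosomes 6 and 8 and 2 on them, the 5 with the most H3K27me3, the 3 with the most H2A.Z WT between the starts, the 3 closest, and textbook pairs. List members named beside these are examples chosen after their values were seen. Alternatives were other thresholds, region lengths, distances, windows, start definitions and sets of chromosomes or genes.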

Additional observations from a re-analysis of the deposited data

Results flagged for a closer look

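The stricter lists, which no comparison above uses, held regions that the 1e-9 lists did not. At 20 of 827 pairs (2.42%, 1.57 to 3.71) an H2A.Z WT region was present in the 1e-12 list and none in the 1e-9 list. For H2A.Z AP3 this was so at 32 pairs (3.87%, 2.75 to 5.41), and for H3K27me3 at no pair. A region at the stricter threshold would lie within one at the looser threshold if the lists differed in the threshold alone, and how the 2 lists were made is not given in the sources used here.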

How the results depend on the processing

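Of 116 values recomputed over 11 results and 13 settings, 99 stayed within the counting interval of the reported value, 16 left it and 1 changed sign. The setting without crossing starts among the unpaired genes was added after seeing the data and moved no difference beyond its interval. Among CpG-rich genes only, paired and unpaired genes differed by 1.37 points in H2A.Z WT, by -4.57 in H2A.Z AP3, with the sign reversed, and by -18.7 in H3K27me3. With the 1e-12 lists H2A.Z AP3 was found at 23.1% of pairs, H3K27me3 at 6.41%, H2A.Z WT between the starts at 39.1% and beside both at 45.9%, H2A.Z AP3 at 27.8% of pairs with H2A.Z WT and H3K27me3 at 7.69% of them. With the union of both lists H2A.Z AP3 was found at 32.0% of pairs and 37.4% of those with H2A.Z WT. With regions of at least 100 bp only, these were 22.1% and 26.6%, and the H2A.Z AP3 difference was 5.58 points. With a window of 1 kb the H2A.Z WT difference was 25.4 points, H3K27me3 was found at 6.29% of pairs and at 7.40% of those with H2A.Z WT. The cause of these shifts was not tested beyond what each setting removes by construction. No paired analysis was possible because each group has 1 library, and no replicate could be left out. The unknown depth limits every comparison between libraries.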
